A study of Mus musculus with 4 samples.

Results

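The 10 genes described here encode integrin subunits that bind collagen, fibronectin or related matrix ligands, and they were chosen by symbol out of 32286 genes listed for tdTom+ spine cells. They are Itgb1, Itga1, Itga2, Itga5, Itga10, Itga11, Itgav, Itgb3, Itgb5 and Itgb8. Their mRNA was measured by 10x 3′ single-cell RNA sequencing in 4 libraries of mouse spine, 1 for each genotype and age. Libraries labelled control came from mice with 1 Cre allele at the Prss56 locus (Prss56Cre/+;R26tdTom/tdTom;Nf1+/+), and libraries labelled mutant from mice with 2 Cre alleles and floxed Nf1 (Prss56Cre/Cre;R26tdTom/tdTom; Nf1fl/fl). Both genotypes were sampled at 3 months and at 12-16 months, and all 4 libraries carry Cre and the tdTom reporter. The reporter is switched on by Cre in Prss56-expressing cells and stays on in their progeny, so the cells are a sorted lineage and not the whole vertebra. Immune (CD11b, CD45), endothelial (CD31) and dead cells were sorted out. Nf1 genotype and Cre dose cannot be told apart, and the number of mice behind a library is not given in the sources used here.

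Integrins are receptors made of an α and a β subunit that link the matrix outside a cell to its actin cytoskeleton. The β1 subunit pairs with α1, α2, α10 and α11 to form the collagen receptors, of which α10β1 is best known in chondrocytes, α11β1 in fibroblasts and osteoblast-lineage cells and α1β1 in smooth muscle and stromal cells. With α5, β1 forms the main fibronectin receptor. The αv subunit pairs with β1, β3, β5 or β8 to bind RGD motifs in vitronectin, fibronectin, osteopontin and latent TGF-β, and αvβ8 is known as an activator of latent TGF-β. Both chains are needed at the cell surface, so the mRNA levels given here do not show how much of each pair was present.

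The subunits divided the gated cells (the plot of levels by gate and library). Itga5 mRNA was high in other cartilage cells and low in endplate, bone/stroma and mural cells. Of the 4 gates taken whole, Itga10 mRNA was highest in both kinds of cartilage cells. Itga11 and Itgb3 mRNA were found mainly in bone/stroma cells. Among whole gates, Itgb1 mRNA was highest in mural cells, the smooth muscle-like and pericyte-like cells of vessel walls. Itga1 mRNA was also highest there among the 4 gates taken whole. In a division chosen after the gates were seen, however, bone/stroma cells led by Cxcl12 exceeded mural cells in 3 of 4 libraries. In 1 of these, the 12-16-month control library, the values came from 4 Cxcl12-led and 2 mural cells. The mural call for Itga1 over bone/stroma was lost without cells that carried blood or endothelial genes (edgeR adjusted p = 0.3277).

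Of 2172 barcodes, 1757 passed the filters of over 750 UMIs, over 500 genes and under 7% of counts from mitochondrial genes. A UMI is a molecular identifier that marks 1 captured mRNA molecule, and levels are counts per 1e+06 UMIs (CPM) over all cells of a gate in a library. A cell was gated as endplate with at least 1 Sox9 UMI and at least 3 UMIs of Zfp804b and Dab1 together, which gave 221 cells. Of the remaining cells, other cartilage had at least 1 Sox9 and at least 3 Acan UMIs (1064 cells). Bone/stroma cells had at most 2 Acan UMIs and at least 1 Runx2 UMI (184 cells), and mural cells had at least 3 UMIs of Rgs5 and Myh11 together (48 cells). The 11 cells that met more than 1 gate were left out, and 229 cells were in no gate. Values are given below in 1 order of libraries, with control before mutant at 3 months and then control before mutant at 12-16 months. In this order the endplate gate held 30, 142, 11 and 38 cells, other cartilage 532, 235, 78 and 219, bone/stroma 43, 39, 25 and 77, and mural 8, 19, 2 and 19. The passing cells of a library held 2154537 to 9429264 UMIs, and no cell barcode was shared between libraries.

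The markers named first were high in the gates of their labels, but not every listed marker set the gates apart. Col2a1, the main collagen of cartilage, ranged over the libraries from 6118 to 10430 CPM in endplate cells and from 3344 to 3582 CPM in other cartilage cells. Col1a1, the main collagen of bone, ranged from 5674 to 106200 CPM in bone/stroma cells, and Acta2, a smooth muscle actin, from 6504 to 10260 CPM in mural cells. The summed cartilage markers were at 16260 to 23240 CPM in endplate and 13810 to 17350 CPM in other cartilage cells, so they did not separate the cartilage gates. The osteoblast gene Sp7 overlapped between bone/stroma (40.6 to 165.7 CPM) and endplate cells (58.9 to 96.3 CPM), as did Alpl. Des, a mural marker, ranged from 0 to 210.8 CPM in mural cells. The bone/stroma gate of the 3-month mutant library stood apart. There, 24 of 39 cells carried UMIs of Ptprc (the CD45 gene), Cdh5 (an endothelial cadherin) or Pf4 (a platelet factor), against 1 of 43, 3 of 25 and 9 of 77 cells in the other libraries, and those 24 cells held 688026 UMIs against 173926 in the other 15. The summed megakaryocyte and platelet markers reached 3265 CPM in that gate and library and the hematopoietic markers 5790 CPM. The bone/stroma gate differences of the 9 tested members, of the lists and of the list genes named are therefore given with and without such cells. Nf1, the floxed gene, was at 131 and 150 CPM in the 3-month control and mutant libraries (ratio 1.14, 95% counting interval 1.05 to 1.24) and at 147 and 125 CPM at 12-16 months (0.853, 0.742 to 0.982). At 3 months the mutant-labelled library thus had no lower Nf1 level, and whether the 3′ reads cover the floxed exons is not given in the sources used here.

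**Figure D1:**
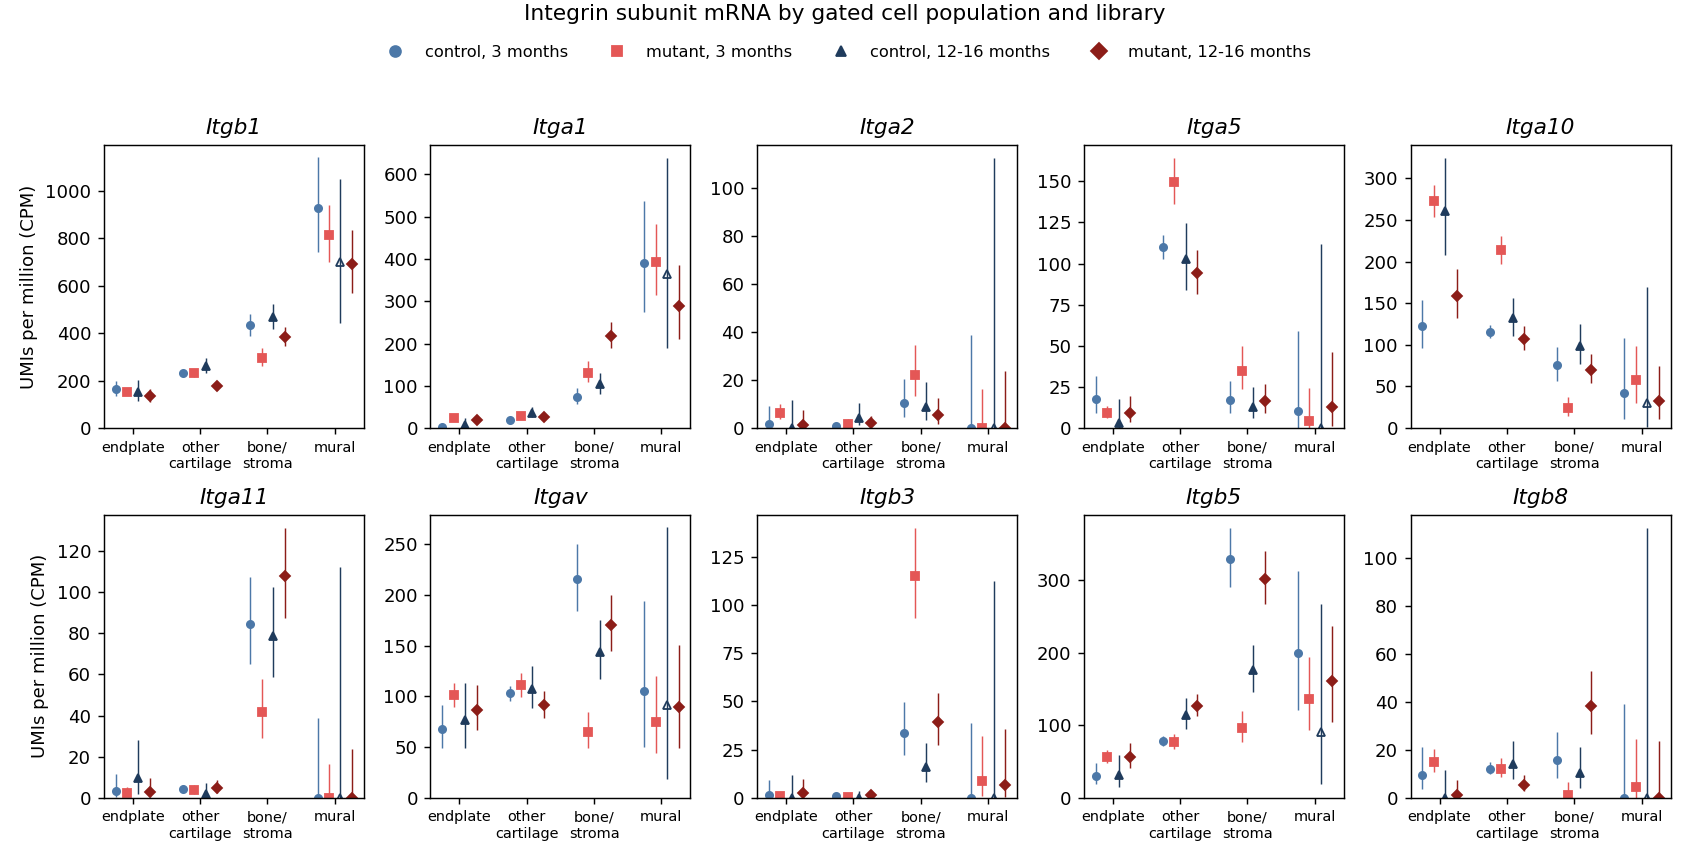
Level of each integrin subunit (CPM, linear axis from 0) in 4 gated cell populations, with 1 point per library (color and shape) and exact Poisson 95% intervals. Itga5 was at 94.4 CPM or more in other cartilage of all 4 libraries and at 34.8 CPM or less in the other gates. The open symbols mark the 2 mural cells of the 12-16-month control library.

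All 10 genes are protein coding. In the GRCm38 annotation (GENCODE M21), Itga1 (13:114953096-115101964) and Itga2 (13:114833081-114932100) are both on the minus strand of chromosome 13. Itgb1 lies on chromosome 8 from 128685654 to 128733200, Itga10 on chromosome 3 from 96645584 to 96664519 and Itga11 on chromosome 9 from 62677826 to 62783982, each on the plus strand. Itga5 lies on chromosome 15 from 103344286 to 103366763 on the minus strand. Itgav (chromosome 2, 83724397 to 83806916), Itgb3 (chromosome 11, 104608000 to 104670476) and Itgb5 (chromosome 16, 33829665 to 33949338) are on the plus strand and Itgb8 (chromosome 12, 119158022 to 119238802) is on the minus strand.

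Differences between gates were tested within libraries. UMIs were summed per library and gate, which gave 15 sums after the 2 mural cells of the 12-16-month control library were dropped, and 10483 genes entered an edgeR quasi-likelihood test with the library as a block. A gene was called at a Benjamini-Hochberg adjusted p under 0.05. Of the 10 members, 9 were tested, since Itga2 had too few UMIs. The p-values set each gate difference against the spread that was left in the 15 sums after the levels of gates and libraries were fitted. The libraries also differ in genotype and age, and such differences that were not alike in all gates are part of this spread. The estimate of this spread was shared by all gates. A change in the sums of any gate can therefore change the SE and the calls of comparisons between other gates.

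In endplate against other cartilage cells, 3 of 9 members tested were lower (Itga5, Itgb5 and Itgb1) and none was higher, where 9.86% of all genes tested were lower and 8.36% were higher. The median log2 fold change of the members was -0.55, against -0.02 for all genes. In bone/stroma against other cartilage cells, 5 members were higher (Itgb3, Itga11, Itga1, Itgb5 and Itgb1) and 2 lower (Itga5 and Itga10), where 15.9% and 18.1% of all genes were called in these directions, with medians of 0.63 and 0.01. Without the cells with Ptprc, Cdh5 or Pf4 UMIs, 6 members were higher, Itgav being the one added, and 2 lower, beside 18.1% and 21.8% of 10244 genes. In mural against other cartilage cells, Itga1 and Itgb1 were higher and Itga5 and Itga10 lower, beside 11.7% and 16.3% of all genes, with medians of -0.63 and -0.22. In mural against bone/stroma cells, Itga1 and Itgb1 were higher and Itga11 and Itgb3 lower, beside 9.58% and 11.8% of all genes, with medians of -0.95 and -0.21. Without those cells 1 member was higher (Itgb1) and 5 lower (Itga10, Itga11, Itgav, Itgb3 and Itgb5), beside 11.2% and 14.2% of all genes. In both mural comparisons the median gene lay below 0 on the scale of the fit. The members' log2 fold changes there are given from 0, without a correction for that shift.

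**Figure D2:**
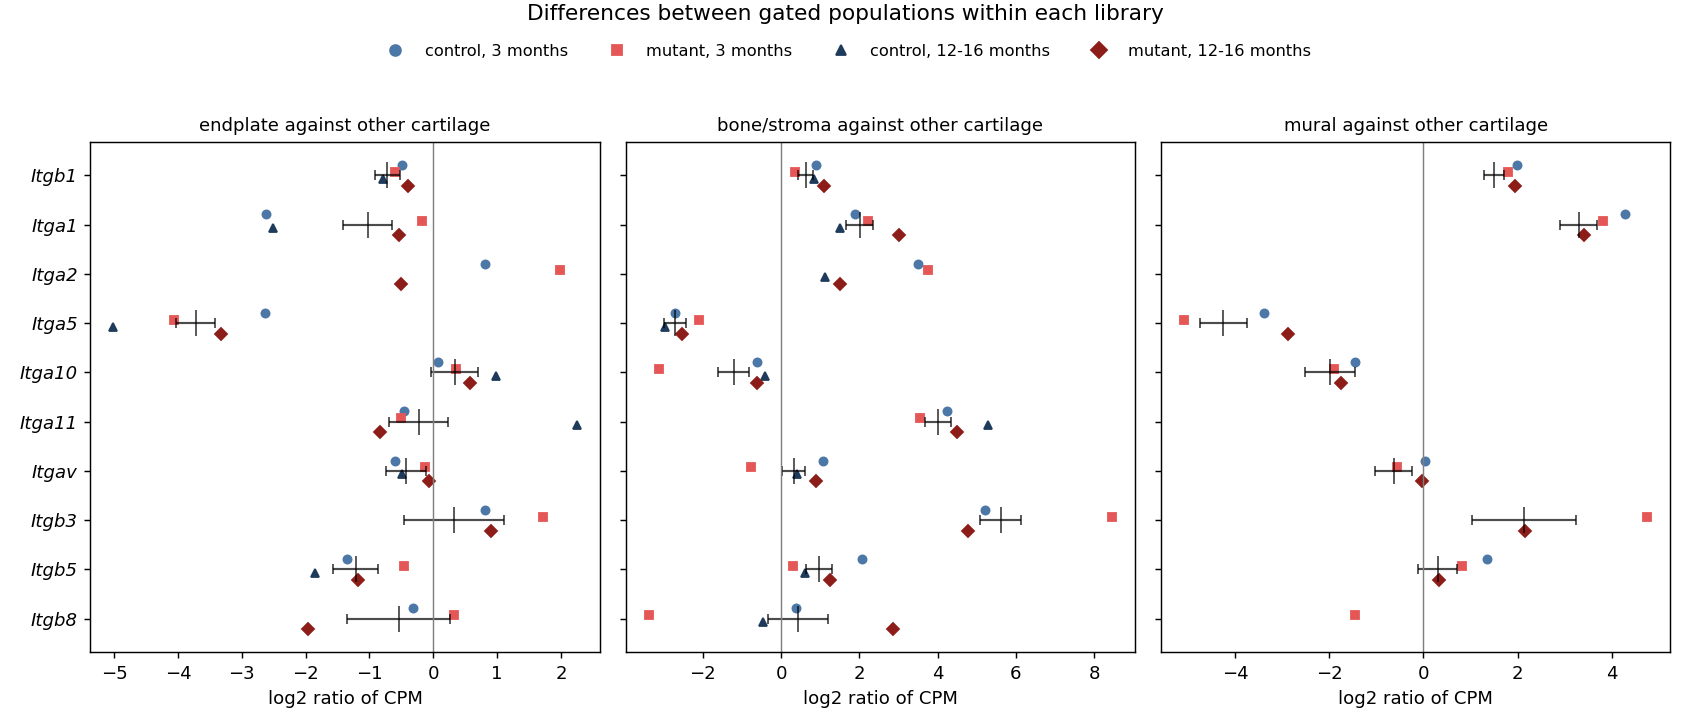
Log2 ratio of the CPM of each subunit between a gate and other cartilage cells of the same library (points, 1 per library with UMIs in both gates), with the edgeR estimate ± SE as a black bar. The mural panel holds the 3 libraries with at least 8 mural cells, and no estimate is drawn for Itga2, which was not tested, or for Itga11 and Itgb8 in mural cells, which had 0 and 1 UMI. All 4 points of Itga5 lie below -2 for endplate and for bone/stroma cells.

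Itga5, the α chain of the fibronectin receptor, separated other cartilage cells from the other gates. The 229 cells in no gate lay between, at 42.3 to 77.4 CPM over the libraries. Its levels in other cartilage cells were 109.8, 149.6, 103 and 94.4 CPM, from 839, 458, 102 and 198 UMIs. In endplate cells they were 17.7, 8.98, 3.18 and 9.37 CPM, from 11, 25, 1 and 7 UMIs. All 4 endplate values lay below all 4 values of other cartilage. The log2 fold change was -3.72 ± 0.31 (SE, edgeR quasi-likelihood test, adjusted p = 1.538e-05). In bone/stroma cells Itga5 was at 16.9, 34.8, 13.1 and 16.3 CPM (log2 fold change -2.72 ± 0.28, edgeR adjusted p = 5.520e-06), and in mural cells it had 1, 1, 0 and 2 UMIs (-4.25 ± 0.50, edgeR adjusted p = 2.715e-05). Of the 30 Itga5 UMIs in bone/stroma cells of the 3-month mutant library, 27 were in cells with Ptprc, Cdh5 or Pf4 UMIs. Without such cells the bone/stroma difference was -3.19 ± 0.27 on the log2 scale (edgeR adjusted p = 1.160e-07).

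Lower Itga5 levels were also seen in cells just outside the border of the endplate gate. Among Sox9+ cartilage cells pooled over libraries, Itga5 was at 119 CPM in the 1026 cells with no Zfp804b or Dab1 UMI. Also outside the gate, the 26 cells with 1 such UMI held 58.0 CPM, from 24 Itga5 UMIs. The 12 cells with 2, still outside, held 4.59 CPM, and the 18 cells with 3, just inside, held 2.66 CPM. Both of these last values rest on 1 Itga5 UMI each, under the floor of 3 counts used here. The 66 cells with 4 to 9 UMIs and the 137 cells with 10 or more held 9.18 and 11.1 CPM, from 12 and 31 Itga5 UMIs. Of the 221 endplate cells, 142 came from the 3-month mutant library, and the classes were not split by library. Over the same 6 classes Itga10 moved between 135 and 255 CPM. The classes with more UMIs of the gate genes were also deeper, with a median of 11089 UMIs per cell in the first class and 18750 in the last.

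Depth per cell was taken out by thinning every cell with at least 5000 UMIs to 5000 UMIs and leaving out shallower cells. Itga5 was then found in 38.2% of 977 other cartilage cells and 7.34% of 218 endplate cells. Among 26 thinned cells outside the gates that carried Ptprc, a gene of blood cells, the share with Itga5 was 11.5%. Blood cells can hold Itga5 mRNA themselves, as did the marked bone/stroma cells above, so this share sets no background level, and how much of the endplate share came from free RNA was not tested. Over all 53 Ptprc+ cells outside the gates the median was 4774 UMIs, and these 26 were the ones with at least 5000 UMIs. With the gates themselves set on thinned cells, Itga5 still differed by -3.31 on the log2 scale (edgeR adjusted p = 3.022e-05).

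Among the 4 gates taken whole, Itga10, the α chain of the chondrocyte collagen receptor, had its highest levels in the 2 cartilage gates. Its levels were 122.5, 272, 261 and 159 CPM in endplate cells, and 115.8, 214, 132 and 107 CPM in other cartilage cells. Within each library the endplate value was the higher one, but the sizes differed, and the difference was not called (log2 fold change 0.33 ± 0.37, edgeR adjusted p = 0.5832). Without the cells with Ptprc, Cdh5 or Pf4 UMIs this difference was 0.32 ± 0.18 and still not called (edgeR adjusted p = 0.2199). Bone/stroma cells held 75.2, 24.4, 98.8 and 69.6 CPM, and the difference from other cartilage was -1.21 ± 0.39 (edgeR adjusted p = 0.02679). The lowest of these, in the 3-month mutant library, rose to 120.7 CPM without the cells with Ptprc, Cdh5 or Pf4 UMIs, none of which held an Itga10 UMI there. Leaving such cells out reduced the difference to -0.65 ± 0.19 (edgeR adjusted p = 0.01259). Mural cells had 4, 13, 1 and 5 Itga10 UMIs (-1.98 ± 0.54, edgeR adjusted p = 0.01424). Both calls were lost without the 3-month control or the 12-16-month mutant library, at log2 fold changes of -1.40 and -1.33 for bone/stroma and of -1.995 and -1.905 for mural cells. Itga10 UMIs were found in 0 of 53 Ptprc+ cells outside the gates, which allows a share with a UMI of up to 5.66%.

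The promoters of both α chains that part in cartilage, and of their common partner Itgb1, are shown for context, as the 250 bases before the RefSeq start on GRCm38.p6, with a SOX match in capitals.

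Itga5 (chr15:103366792-103367041, minus strand): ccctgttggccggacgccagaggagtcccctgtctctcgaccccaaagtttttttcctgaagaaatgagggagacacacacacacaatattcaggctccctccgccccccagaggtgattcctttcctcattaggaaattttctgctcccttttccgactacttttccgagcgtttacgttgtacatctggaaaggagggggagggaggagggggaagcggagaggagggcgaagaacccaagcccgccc

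Itga10 (chr3:96645334-96645583, plus strand): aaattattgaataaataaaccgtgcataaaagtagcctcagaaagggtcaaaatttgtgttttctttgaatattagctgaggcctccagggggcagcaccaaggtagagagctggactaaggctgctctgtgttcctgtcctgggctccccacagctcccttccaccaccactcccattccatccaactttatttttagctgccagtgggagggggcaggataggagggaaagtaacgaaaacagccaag

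Itgb1 (chr8:128685404-128685653, plus strand): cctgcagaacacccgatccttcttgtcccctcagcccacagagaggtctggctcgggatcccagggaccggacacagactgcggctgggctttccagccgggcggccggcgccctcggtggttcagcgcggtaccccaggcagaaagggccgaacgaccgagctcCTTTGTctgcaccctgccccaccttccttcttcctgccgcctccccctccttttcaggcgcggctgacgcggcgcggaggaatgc

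These 250 bases hold 11 CpGs for Itga5, 2 for Itga10 and 21 for Itgb1, with GC contents of 55.6%, 48% and 68%. RefSeq promoters of 300 bases were found for 9 of the 10 members. The motifs ACAAAG (SOX) and TGTGGT (RUNX) were searched on both strands, and they occur in 18.7% and 16.8% of 32851 mouse promoters. Among the 9 members, only Itgb1 had a match, the SOX motif 85 bases before the start. A match of 6 letters is a description of the sequence and not a binding site, and no match says only that these letters are not in these windows.

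In other cartilage cells the 2 α chains were found together as often as, or less often than, the product of their shares gives. After thinning to 5000 UMIs, Itga5 and Itga10 were both found in 80, 53, 12 and 20 cells, where the product of the shares within each library gives 81.1, 61.8, 11.6 and 25.6. The observed number was below the product in the 3-month mutant and the 12-16-month mutant libraries and close to it in both control libraries. In the 3-month mutant library, Itga5 was found in 40.5% of cells with Itga10 and 56.1% of cells without it. These counts are given without a test.

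Fn1, the fibronectin gene, was at 4920, 2200, 1480 and 7280 CPM in endplate cells and at 3420, 3500, 10300 and 11700 CPM in other cartilage cells, and these ranges overlapped (log2 fold change -1.09 ± 0.50, edgeR adjusted p = 0.1614). In bone/stroma cells, at 135 to 289 CPM, it was lower than in other cartilage (log2 fold change -5.27 ± 0.59, edgeR adjusted p = 1.212e-05), as was Itga5. Without the cells with Ptprc, Cdh5 or Pf4 UMIs it was at 180 to 345 CPM (-4.81 ± 0.53, edgeR adjusted p = 1.881e-06).

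Itga11, the α chain of a collagen receptor of bone-forming and fibroblastic cells, was found in bone/stroma cells at 84.3, 41.8, 78.5 and 107.7 CPM. In other cartilage cells it was at 4.45, 3.59, 2.01 and 4.77 CPM and in endplate cells at 3.22, 2.52, 9.55 and 2.68 CPM. No bone/stroma value overlapped a value of either cartilage gate (bone/stroma against other cartilage, log2 fold change 4.01 ± 0.33, edgeR adjusted p = 2.885e-06). No Itga11 UMI was found in the 48 mural cells. With the floor of 3 counts over the group, which is 5.88 CPM, Itga11 was at least 13.3-fold lower in mural than in bone/stroma cells (edgeR adjusted p = 2.863e-04). Of the 36 Itga11 UMIs in the 3-month mutant bone/stroma cells, all were in the 15 cells without Ptprc, Cdh5 or Pf4 UMIs, where the level was 207 CPM. Without the cells that had them, the difference from other cartilage was 4.65 ± 0.31 on the log2 scale (edgeR adjusted p = 2.767e-08), and Itga11 stayed lower in mural than in bone/stroma cells (edgeR adjusted p = 2.249e-05).

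Itga1, the α chain of the collagen receptor of smooth muscle and stromal cells, rose from cartilage over bone/stroma to mural cells. Endplate cells held 3.22, 24.8, 6.36 and 18.7 CPM and other cartilage cells 19.9, 28.1, 36.2 and 27.2 CPM, and these gates were not told apart (log2 fold change -1.03 ± 0.39, edgeR adjusted p = 0.08662), though Itga1 was called lower in endplate cells without the 3-month mutant library (-1.58). Bone/stroma cells held 73.9, 131, 103 and 219 CPM, and mural cells 389.9, 393, 365 and 289 CPM, the third of these from 2 cells. Every bone/stroma value lay above every cartilage value, and every mural value above every bone/stroma value. Against other cartilage, the log2 fold change was 2.01 ± 0.34 in bone/stroma cells (edgeR adjusted p = 3.910e-04) and 3.30 ± 0.39 in mural cells (edgeR adjusted p = 3.176e-05). The bone/stroma difference was 2.53 ± 0.40 without the cells with Ptprc, Cdh5 or Pf4 UMIs (edgeR adjusted p = 7.474e-05). Between mural and bone/stroma cells it was 1.29 ± 0.37 (edgeR adjusted p = 0.02583). This last call was lost without the cells with Ptprc, Cdh5 or Pf4 UMIs (0.63 ± 0.43, edgeR adjusted p = 0.3277), where the 3-month mutant bone/stroma level was 563.5 CPM. It was also lost without any 1 of the libraries of 3-month control, 3-month mutant and 12-16-month control, at log2 fold changes of 0.92, 1.15 and 1.25.

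The bone/stroma gate mixed cells in which these subunits differed (the plot of subunits within the bone/stroma gate). Its cells without Ptprc, Cdh5 or Pf4 UMIs were divided into those with more Cxcl12 than Col1a1 UMIs (14, 10, 4 and 43 cells), Cxcl12 being a chemokine of marrow stromal cells, and the others (28, 5, 18 and 25 cells). The others had at least as many Col1a1 as Cxcl12 UMIs, ties included, and are called Col1a1-led here. This division was chosen after the gates were seen and is given without a test. Itga1 was at 245, 836, 450.3 and 414 CPM in the Cxcl12-led cells and at 22.1, 107.7, 24.8 and 35.0 CPM in the Col1a1-led cells. The Cxcl12-led value was the higher one in all 4 libraries, and it also exceeded the mural value of the same library except in the 3-month control library. The mural value of the 12-16-month control library came from 2 cells. Itgb3 went the other way, with 2, 1, 0 and 9 UMIs in Cxcl12-led cells and 24, 7, 11 and 23 UMIs in Col1a1-led cells. Itga11 was found in both, at 102 to 174.5 CPM and 64.5 to 262 CPM. Itgb1 was at 647, 716, 982.5 and 454.5 CPM in Cxcl12-led cells and at 369.9, 399.9, 383 and 382 CPM in Col1a1-led cells. The Cxcl12-led value of Itgb1 exceeded the mural value of the same library only in the 12-16-month control library, from 4 and 2 cells. Itga10 was at 22.3, 82.6, 81.9 and 30.8 CPM in Cxcl12-led cells and at 91.6, 184.6, 122 and 127.4 CPM in Col1a1-led cells. The last of these values lay above the 107 CPM of other cartilage cells in the 12-16-month mutant library. The Cxcl12-led cells made up more of the divided cells in the 12-16-month mutant library than in the 12-16-month control library. Itga1 over the divided cells was at 229.7 CPM in that mutant and 61.0 CPM in that control library, against 219 and 103 CPM in the whole gate. The part of the Cxcl12-led share in these levels was not tested.

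**Figure D3:**
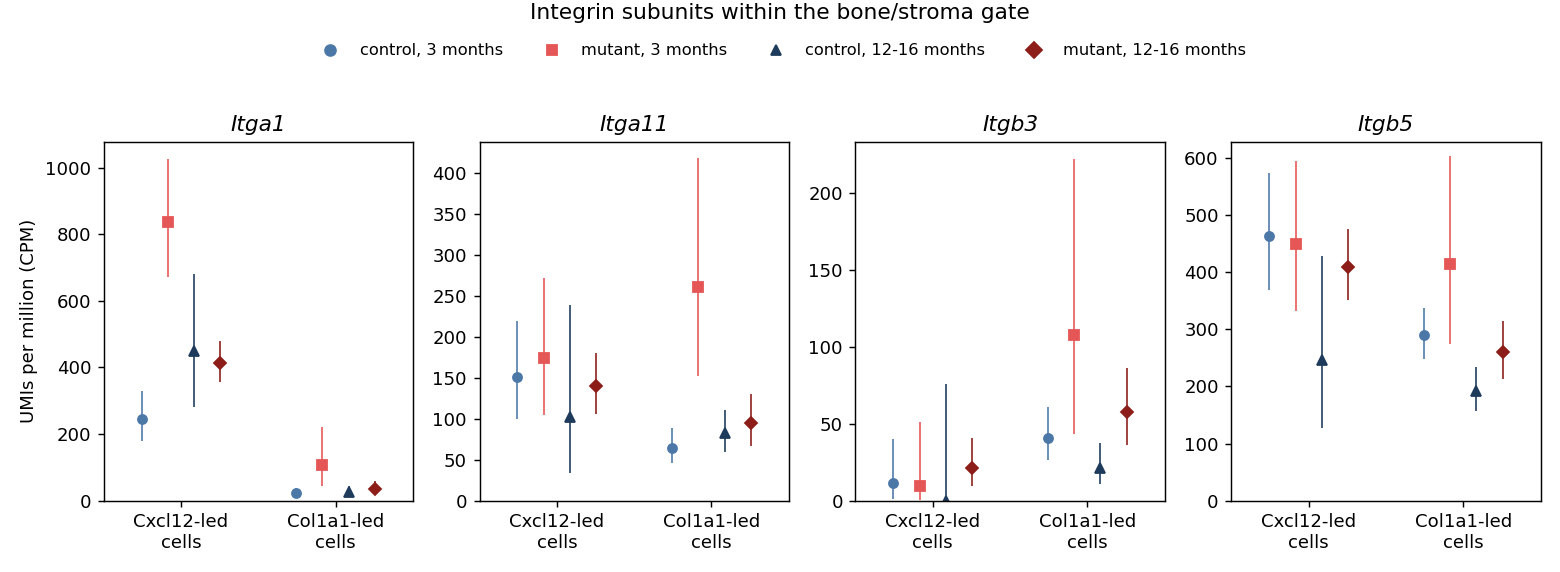
Level of 4 subunits (CPM, linear axis from 0) in bone/stroma cells without Ptprc, Cdh5 or Pf4 UMIs, with 1 point per library and exact Poisson 95% intervals. Cells with more Cxcl12 than Col1a1 UMIs are Cxcl12-led, and all others, ties included, are Col1a1-led. Itga1 was at 245 to 836 CPM in Cxcl12-led cells and at 22.1 to 107.7 CPM in Col1a1-led cells.

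Itga2, the α chain of another collagen receptor, was near the limit of detection, with 84 UMIs over all passing cells. Bone/stroma cells held 8, 19, 6 and 5 of them, endplate cells 1, 18, 0 and 1, and other cartilage cells 7, 5, 4 and 4. Of the 19 UMIs in the 3-month mutant bone/stroma cells, 1 remained without the cells with Ptprc, Cdh5 or Pf4 UMIs, and no mural cell had a UMI. No test was made for Itga2.

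Itgb1, the common partner of these α chains, had more UMIs than any other member (5740 over all passing cells) and was found in every gate and library. It was at 164.5, 153, 153 and 136.5 CPM in endplate cells, 232, 232, 263 and 179 CPM in other cartilage cells, 433, 297, 468 and 385 CPM in bone/stroma cells and 927, 812.5, 699.9 and 693 CPM in mural cells. The ranges of the 4 gates taken whole did not overlap. Against other cartilage, the log2 fold change was -0.72 ± 0.20 in endplate cells (edgeR adjusted p = 0.02307), 0.63 ± 0.20 in bone/stroma cells (edgeR adjusted p = 0.02327) and 1.5 ± 0.22 in mural cells (edgeR adjusted p = 1.730e-04). Mural cells exceeded bone/stroma cells by 0.87 ± 0.22 on the log2 scale (edgeR adjusted p = 0.01246). The endplate call was lost without any 1 of the 3-month control, 12-16-month control and 12-16-month mutant libraries, at log2 fold changes from -0.68 to -0.77. Without any 1 of the same 3 libraries the bone/stroma call was lost too, at 0.57 to 0.59, and the call between mural and bone/stroma cells was lost without the 3-month control (0.91) or the 12-16-month mutant library (0.93). Without the cells with Ptprc, Cdh5 or Pf4 UMIs, the 3-month mutant bone/stroma level became 598 CPM and the bone/stroma difference 0.91 ± 0.15 (edgeR adjusted p = 1.679e-04). Mural cells then exceeded bone/stroma cells by 0.56 ± 0.17 (edgeR adjusted p = 0.02721).

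Itgav, the αv chain, differed little between the cartilage and mural gates. It was at 67.7, 101, 76.4 and 87.0 CPM in endplate cells, at 103, 111, 107.7 and 91.5 CPM in other cartilage cells and at 105, 75.1, 91.3 and 89.9 CPM in mural cells. Bone/stroma cells held 215, 65.0, 144 and 171 CPM, with the low value in the 3-month mutant library. No gate difference of Itgav was called (bone/stroma against other cartilage, log2 fold change 0.32 ± 0.30, edgeR adjusted p = 0.4632). Without the cells with Ptprc, Cdh5 or Pf4 UMIs, that library's value was 155 CPM and Itgav was called higher in bone/stroma than in other cartilage cells (0.68 ± 0.18, edgeR adjusted p = 0.006663), as it was without the 3-month mutant library (0.72). Mural cells were then lower than bone/stroma cells in Itgav (-1.33 ± 0.26, edgeR adjusted p = 0.001285), Itgb5 (-1.30 ± 0.29, edgeR adjusted p = 0.003534) and Itga10 (-1.37 ± 0.32, edgeR adjusted p = 0.004397) when the cells with Ptprc, Cdh5 or Pf4 UMIs were left out.

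Itgb5, a vitronectin-binding partner of αv, was at 30.6, 56.0, 31.8 and 56.2 CPM in endplate cells and at 78, 77.4, 114.7 and 127 CPM in other cartilage cells, and these did not overlap. The log2 fold change was -1.22 ± 0.36 (edgeR adjusted p = 0.0305), a call that was lost without the 3-month control, the 12-16-month control or the 12-16-month mutant library, at log2 fold changes from -1.05 to -1.19. Bone/stroma cells held 329, 96.3, 176 and 302 CPM (0.97 ± 0.34 against other cartilage, edgeR adjusted p = 0.03967, a call lost without any 1 of the same 3 libraries, at 0.60 to 1.12). The 3-month mutant value was 437 CPM without the cells with Ptprc, Cdh5 or Pf4 UMIs, and the difference was then 1.53 ± 0.23 (edgeR adjusted p = 4.805e-05). Mural cells held 200.2, 137, 91.3 and 160.5 CPM and were not told apart from other cartilage (0.30 ± 0.41, edgeR adjusted p = 0.6468).

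Itgb3, the β chain of the receptor αvβ3 of osteoclasts and bone cells and of the platelet receptor αIIbβ3, was at 33.7, 114.9, 16.0 and 39.1 CPM in bone/stroma cells. It was at most 2.68 CPM in either cartilage gate, from 6 endplate and 11 other cartilage UMIs in all. The log2 fold change between bone/stroma and other cartilage cells was 5.61 ± 0.52 (edgeR adjusted p = 2.753e-06). In the 3-month mutant library, 83 of the 99 bone/stroma UMIs came from 1 cell, which also held 2611 Pf4, 121 Itga2b, 38 Gp9 and 6 Itga2 UMIs, genes of megakaryocytes and platelets, and no Col1a1 UMI. Without the cells with Ptprc, Cdh5 or Pf4 UMIs the levels were 33.8, 46.0, 19.2 and 38.9 CPM, and the difference was 5.18 ± 0.49 (edgeR adjusted p = 3.521e-07). The other bone/stroma cells with many Itgb3 UMIs, with 7 in the 12-16-month mutant library and 4 in the 3-month control library, carried Runx2 and Col1a1 UMIs and no Pf4. Mural cells had 3 Itgb3 UMIs in all and differed from bone/stroma cells by -3.48 ± 0.74 on the log2 scale (edgeR adjusted p = 0.004454), or by -2.77 ± 0.73 without the marked cells (edgeR adjusted p = 0.01025).

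Itgb8, the β chain of the TGF-β-activating receptor αvβ8, was low in all gates, with 267 UMIs over all passing cells. Its highest value was 38.1 CPM in bone/stroma cells of the 12-16-month mutant library, where the other libraries held 15.6, 1.16 and 10.2 CPM. Other cartilage cells held 12.0, 12.1, 14.1 and 5.24 CPM, endplate cells 9.67, 15.1, 0 and 1.34 CPM, and mural cells 1 UMI in all. No gate difference was called, with SEs of 0.80 and 0.77 on the log2 scale for endplate and bone/stroma against other cartilage. The bone/stroma difference without the cells with Ptprc, Cdh5 or Pf4 UMIs was 0.97 ± 0.56 and was not called (edgeR adjusted p = 0.1852).

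Other genes of the integrin system were read from lists beside the members. Of the 6 other integrin subunits tested of 16, Itgb4 was higher and Itga9 (log2 fold change -2.98 ± 0.67, edgeR adjusted p = 0.008134) and Itga3 (-2.02 ± 0.49, edgeR adjusted p = 0.01236) were lower in endplate than in other cartilage cells. Itgb4, the partner of the laminin receptor α6β4, was at 74.2, 12.2, 38.2 and 83.0 CPM in endplate cells and at 0.785, 1.31, 2.01 and 15.7 CPM in other cartilage cells (log2 fold change 3.70 ± 0.61, edgeR adjusted p = 0.001708). Its partner Itga6, the other subunit with the most UMIs, was not called there (1.27 ± 0.53, edgeR adjusted p = 0.1249), at 54.6 to 95.5 CPM in endplate and 17.1 to 35.7 CPM in other cartilage cells. Without the cells with Ptprc, Cdh5 or Pf4 UMIs, Itga6 was called higher in endplate cells (1.29 ± 0.23, edgeR adjusted p = 0.001013). The fold change had hardly moved, and the SE, from a spread shared by all gates, was smaller. In mural cells Itga7, a laminin-binding partner of β1 in muscle, was at 84.3, 225, 243 and 173 CPM, against at most 1.91 CPM in other cartilage cells (6.77 ± 0.78, edgeR adjusted p = 2.414e-05). Mural cells also held no Itga6 UMI (edgeR adjusted p = 0.04305 against other cartilage) and more Itga4 (4.34 ± 1.33, edgeR adjusted p = 0.02669). This Itga4 call rests on 2, 2, 0 and 4 UMIs in mural cells and 3, 4, 0 and 0 in other cartilage cells. Itga4 was not tested without the cells with Ptprc, Cdh5 or Pf4 UMIs. In bone/stroma cells Itga9 (2.54 ± 0.40, edgeR adjusted p = 2.202e-04) and Itga4 (5.29 ± 0.87, edgeR adjusted p = 3.341e-04) were called higher, and Itga4, a subunit of white blood cells, was at 146 CPM in the 3-month mutant library and at most 18.9 CPM in the other 3. Of the 126 Itga4 UMIs behind the first value, 0 remained without the cells with Ptprc, Cdh5 or Pf4 UMIs, and 2, 0 and 2 remained in the other libraries, too few for a test. Itga9 was still higher without those cells (3.25 ± 0.36, edgeR adjusted p = 2.033e-06), and Itga6 was then called lower in bone/stroma cells (-3.54 ± 0.46, edgeR adjusted p = 2.286e-05).

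Of 19 adaptor genes tested, which couple integrins to actin, 1 was higher in endplate than in other cartilage cells (Ptk2, the focal adhesion kinase, at a log2 fold change of 0.88 ± 0.24, edgeR adjusted p = 0.02296) and none was lower. Of all genes tested, 8.36% were higher and 9.86% lower there. Without the cells with Ptprc, Cdh5 or Pf4 UMIs, 2 adaptor genes were higher (Ptk2 and Lims1) and 2 lower (Parva and Tns1), beside 12.8% and 13.6% of all genes. In mural cells 7 were higher and 1 lower than in other cartilage cells, beside 11.7% and 16.3% of all genes. Among the higher ones were Zyx (2.06 ± 0.38, edgeR adjusted p = 0.001044), Lims1 (1.97 ± 0.27, edgeR adjusted p = 1.096e-04) and Tns1 (1.92 ± 0.36, edgeR adjusted p = 0.001171). So was Tln1, encoding a talin, which binds and activates β subunits (1.92 ± 0.20, edgeR adjusted p = 1.160e-05). The lower one was Tln2, the other talin gene (-3.64 ± 0.49, edgeR adjusted p = 9.422e-05). In bone/stroma cells 4 adaptor genes were higher and 4 lower, beside 15.9% and 18.1% of all genes. These counts were 6 and 5 without the cells with Ptprc, Cdh5 or Pf4 UMIs, beside 18.1% and 21.8%. Of 19 ligand genes tested, 2 were higher in endplate cells (Col9a1 and Tgfb2) and 6 lower, with the largest falls in Col3a1 and Col4a1. These counts were 3 and 7 without the cells with Ptprc, Cdh5 or Pf4 UMIs. For the ligand genes, the shares of all genes called are those given beside the adaptor genes. In bone/stroma cells 6 ligand genes were higher, led by Col1a1 and Tnc, and 7 lower, or 7 and 7 without those cells. In mural cells 4 were higher, with Postn and Col4a1 first, and 9 lower. Between mural and bone/stroma cells, 8 adaptor genes were higher and 2 lower in mural cells, and 3 ligand genes were higher and 8 lower. Of all genes, 9.58% were higher and 11.8% lower. Without the cells with Ptprc, Cdh5 or Pf4 UMIs the adaptor counts were again 8 and 2, and the ligand counts 3 and 11. The shares of all genes were then 11.2% and 14.2%. The discoidin domain receptors Ddr1 and Ddr2, collagen receptors that are not integrins, were not called in endplate or mural cells, and Ddr1 was lower in bone/stroma cells (-1.57 ± 0.33, edgeR adjusted p = 0.001903). With the cells with Ptprc, Cdh5 or Pf4 UMIs left out, the Ddr1 difference was -1.20 ± 0.34 (edgeR adjusted p = 0.01003), and Ddr2 was called higher in bone/stroma cells (0.62 ± 0.19, edgeR adjusted p = 0.01694).

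Conditions were compared in other cartilage cells, the largest gate. With 1 library per condition the ratios of CPM are given without a test, each with a 95% interval that covers counting error only. A model with additive terms for genotype and age over the 4 libraries, which would leave 1 residual degree of freedom, was not run. Genes with 20 or more UMIs in the pair of libraries were called at a ratio of at least 1.5-fold in either direction with an interval that did not include 1. The comparisons share libraries, so they are not independent of each other.

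Between the 3-month libraries, of which the one labelled mutant had no lower Nf1 level, 1 of 8 members was called higher and none lower, where 9.57% of 12471 genes were higher and 9.03% lower. It was Itga10, with 654 UMIs in the mutant and 885 in the control library and a ratio of 1.84 (1.66 to 2.04). The Itga10 ratio was 2.22 (1.75 to 2.85) in endplate cells. Itga5 and Itga1 were also above 1 in other cartilage, at 1.36 (1.21 to 1.53) and 1.41 (1.07 to 1.85), but under the fold used, and Itgb1 was at 1.00 (0.916 to 1.09). Itga10 did not hold this order at 12-16 months, where the ratio of mutant to control was 0.814 (0.653 to 1.02) in other cartilage cells and 0.610 (0.457 to 0.819) in endplate cells.

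Between the 12-16-month libraries, 1 of 7 members was called lower and none higher, where 7.27% and 5.8% of 10076 genes were called in these directions. It was Itgb8, from 11 UMIs in the mutant and 14 in the control library (0.372, 0.153 to 0.882). Itgb8 was, however, higher in bone/stroma cells of the mutant library, from 35 and 7 UMIs (3.74, 1.64 to 9.98), or 3.48 (1.53 to 9.30) without the cells with Ptprc, Cdh5 or Pf4 UMIs, and over all passing cells the ratio was 1.09 (0.647 to 1.90). Of the 35 mutant bone/stroma UMIs, 1 cell held 11 and another held 7. Of the 7 control UMIs, 1 cell held 6. The counting interval does not allow for such clumping in single cells. Itgb1 was at 0.681 (0.579 to 0.8), just short of the fold used.

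Between ages in the control libraries, 1 of 8 members was higher at 12-16 months and none lower, where 8.69% and 4.92% of 12062 genes were called. It was Itga1, with 36 UMIs at 12-16 months and 152 at 3 months and a ratio of 1.82 (1.23 to 2.63). Itgb5 was at 1.47 (1.19 to 1.80). Between ages in the mutant libraries, Itgb5 was higher at 12-16 months (1.64, 1.38 to 1.97), beside 7.55% of 11081 genes. Lower there were Itga10 (0.502, 0.429 to 0.585), Itga5 (0.631, 0.531 to 0.747) and Itgb8 (0.434, 0.200 to 0.868), 3 of 8 members beside 7.71% of all genes. Itgb5 was thus the member whose ratio lay in the same direction, with an interval above 1, at both genotypes. The spread between mice was not measured, so none of these ratios could be set against it.

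**Figure D4:**
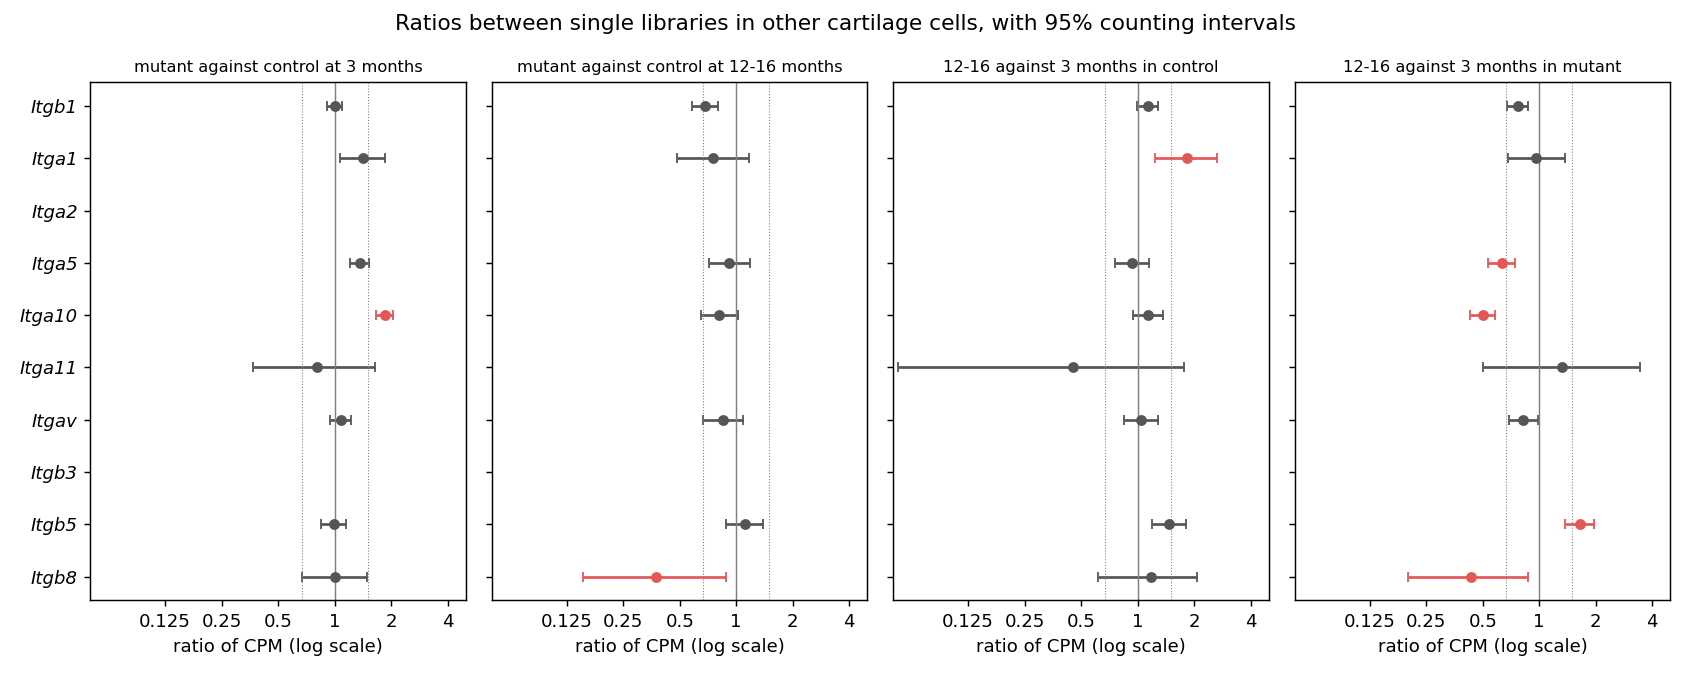
Ratio of CPM between single libraries in other cartilage cells (log axis) for each member with 20 or more UMIs in the pair, with exact 95% counting intervals. Called ratios are in red and dotted lines mark 1.5-fold in each direction. Itga10 was at 1.84 between the 3-month libraries and at 0.814 between the 12-16-month libraries.

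Itga1 had different ratios of mutant to control at 3 months in the different populations. The ratio was 2.03 (1.74 to 2.38) over all passing cells, 1.41 in other cartilage cells and 1.01 (0.680 to 1.52) in mural cells. In endplate cells it was 7.69 (2.05 to 64.8), from 69 and 2 UMIs. The bone/stroma ratio was 1.77 (1.28 to 2.48), and 7.60 (5.43 to 10.7) without the cells with Ptprc, Cdh5 or Pf4 UMIs, from 98 and 57 UMIs. At 12-16 months the bone/stroma ratio of Itga1 was 2.12 (1.61 to 2.82), and 3.76 (2.61 to 5.56) without those cells. In Cxcl12-led cells, mutant and control held 836 and 245 CPM at 3 months, and 414 and 450.3 CPM at 12-16 months. In Col1a1-led cells they held 107.7 and 22.1 CPM, and then 35.0 and 24.8 CPM. Cxcl12-led were 10 of 15 mutant and 14 of 42 control cells at 3 months, and 43 of 68 and 4 of 22 at 12-16 months. What set the size of the Itga1 ratios was not tested.

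For the 6 members with at least 500 UMIs, the genes with the most similar pattern were found by Pearson correlation of log2(CPM + 1) over the 15 sums, among 6577 genes. They were Pdgfa, Flna and Hdac5 for Itgb1 (r = 0.967 to 0.953), Mylk, Gcnt2 and Esyt1 for Itga1 (0.964 to 0.95) and Dmkn, Clu and Pkn3 for Itga5 (0.95 to 0.93). For Itga10 they were Ccdc80, Rftn2 and Tmem117 (0.92 to 0.919), for Itgb5 Kcnt2, Egfr and Olfml2b (0.927 to 0.917) and for Itgav Cemip2, Nectin3 and Twist1 (0.862 to 0.838). The sums share libraries and depth and fall into 4 gates, so these values describe gate patterns and carry no p.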

How the data were processed

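Droplet libraries (10x 3′, version v3.1 chemistry) were made by the authors from sorted tdTom+ cells. The deposited values are UMI counts per gene and cell barcode, made by the authors with Cell Ranger 8.0.0 on mm10 with a tdTomato sequence added; the authors filtered, integrated and clustered the cells later, and that annotation was not used here. Whether free RNA had been corrected in these counts was not tested, and they were used as deposited. Libraries were mapped to groups by their labels. Members, lists and gates were chosen with earlier results of these data known.

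The cutoffs of the study on UMIs, genes and mitochondrial share were applied to the counts as deposited, without its SoupX correction for free RNA and without its removal of genes found in few cells, and each library kept more cells than the study gives. Cells were gated on UMIs as stated, and counts were summed per library and gate (sums of fewer than 5 cells left out) in Python 3.11.15 (pandas 2.3.3, numpy 2.4.6, scipy 1.17.1). Scrublet (scanpy 1.11.5, expected rate 6%) called 19 of 1757 cells as doublets (2, 4, 9 and 4 per library), which were kept. Gate sums were fitted with edgeR 4.0.16 in R 4.3.3 (TMM, filterByExpr, 8 residual degrees of freedom), with SE taken as the log2 fold change divided by the root of F. The fit was also run on counts simulated from a shared mean profile, with changes in the endplate sums only and no library effect beyond total counts. These settings are simpler than the data, so that run cannot show how stable the calls are. DESeq2 1.42.0 was an alternative. Ratios used exact conditional binomial intervals and levels exact Poisson intervals, which cover counting error only. The floor of a count of 0 was 3 counts. Genes were placed with GENCODE M21, in which 32158 of 32286 identifiers were found. The genes named are all members, other integrin subunits that were called or had the most UMIs, list genes with the largest changes, and genes of similar pattern. Alternatives covered normalization, filters, thinning, doublets, leaving out each library, the library block, the fold and the scale.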

Additional observations from a re-analysis of the deposited data

Results flagged for a closer look

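Dixon's test was applied to 46 groups of 4 libraries at the 95% level and marked 3 values, where chance marks about 1 in 20 groups. In the 12-16-month control library, the level of Itga11 in endplate cells was 9.55 CPM, from 3 UMIs, against 2.52 to 3.22 CPM in the other libraries. The log2 ratio of Itga11 between endplate and other cartilage cells was 2.25 in that library, from 3 and 2 UMIs. The log2 ratio of Itga10 between bone/stroma and other cartilage cells was -3.13 in the 3-month mutant library, whose bone/stroma gate held 24 cells with Ptprc, Cdh5 or Pf4 UMIs. Without those cells the Itga10 level of that gate was 120.7 CPM in place of 24.4 CPM.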

How the results depend on the processing

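Itga5 was called lower in endplate than in other cartilage cells under every alternative run, at log2 fold changes from -3.31 to -4.10. The 3 members called in that comparison became 1 with gates set on cells thinned to 5000 UMIs, and 1 to 4 when 1 library was left out. Leaving out 1 library gave 4 to 8 members in place of 7 for bone/stroma against other cartilage, 3 to 4 in place of 4 for mural against other cartilage and 2 to 4 in place of 4 for mural against bone/stroma. The cause of these changes in the calls was not tested, apart from the fewer sums in such fits. In other cartilage cells, mutant against control at 3 months gave 4 called members over all passing cells, 0 at a 2-fold limit and 3 by the mean of per-cell CPM, in place of 1. At 12-16 months it gave 0 with thinned gates, 2 without doublet calls and 2 by the mean of per-cell CPM, in place of 1. Age in the control libraries gave 4 over all passing cells, 0 at a 2-fold limit and 3 by the mean of per-cell CPM, in place of 1, and age in the mutant libraries gave 1 at a 2-fold limit in place of 4. The shares of all genes called under these alternatives are not given here, so the counts do not set the members apart from other genes. Itgb8 between the 12-16-month libraries turned from -1.43 on the log2 scale to 0.12 over all passing cells. The gate comparisons paired the gates of a library through the library block, and without that block the members called numbered 3, 7, 4 and 4, as with it. No paired analysis was possible because the labels give no replicate numbers that would pair libraries across conditions, and the condition ratios come from no test. Leaving out cells with Ptprc, Cdh5 or Pf4 UMIs from the bone/stroma condition ratios and from the gene lists was chosen after seeing the data. Depth limited Itga2, Itgb8 and all values in the 48 mural cells.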
